A study of Mus musculus with 6 samples.

Results

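A set of 10 genes of atrial heart muscle cells, out of 26835 genes in the table, was followed across 6 libraries of mouse heart RNA. They were taken by symbol: Myl7, Myl4, Sln, Bmp10, Dkk3, Stard10, Sbk2, Gja5, Mybphl and Pam. Each symbol had 1 row, and all 10 passed the filter of a mean of at least 1 FPKM (fragments per kilobase of transcript, scaled to library size) over the 6 libraries. Bmp10 passed it through 2 libraries only. The hearts came from wild-type C57BL/6 mice of 7 to 8 weeks and 20 g (± 2 g). Control mice were injected into the peritoneum with DMSO at 10%. CFZ mice were injected the same way with carfilzomib, an irreversible proteasome inhibitor used against myeloma, at 8 mg/kg. CFZ_EA mice had carfilzomib at 8 mg/kg plus electroacupuncture, a current passed through needles, at the PC6 acupoint of the forelimb. Each group had 2 libraries, and days 0, 2, 4 and 6 are listed for all of them. The labels do not give the chambers that each piece of heart held, nor whether replicates were separate mice, so a p-value here reflects only how far these samples differ, and that spread may be technical.

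Atrial and ventricular myocytes build their sarcomeres from partly different genes and carry different regulators of calcium, conduction and secretion. The atria are also an endocrine organ: their myocytes store natriuretic peptides in granules. In an adult mouse the genes described here are far higher in atria than in ventricles, some with further sites of expression. Myl7 and Myl4 encode the atrial regulatory and essential myosin light chains, Mybphl a relative of cardiac myosin-binding protein C, and Sln sarcolipin, a small inhibitor of the calcium pump. Gja5 encodes connexin 40, a gap junction protein of atria, the ventricular conduction system and arterial endothelium. Bmp10 and Dkk3 encode secreted proteins, and Bmp10 is known in the adult heart as a gene of the right atrium. Pam encodes a peptide-amidating enzyme that is abundant in the membranes of atrial granules, Stard10 a phospholipid transfer protein and Sbk2 a protein kinase.

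All 6 libraries had the genes of heart muscle at high levels. Total estimated counts ran from 50013990 to 75742448 per library, and 3 counts corresponded to 0.0396 to 0.0600 CPM. Actc1, the cardiac actin, measured 7749 to 8749 FPKM, and Myh6, the main myosin heavy chain of the adult mouse heart, 3159 to 3574 FPKM. Control replicate 2 stood apart from the others along principal component 1 of the log2 CPM values (48.6, against -23.2 to 0.636, with 36.4% of the variance), and its summed fibroblast genes were 1044 FPKM against 124 to 199 FPKM elsewhere.

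The level of the 10 genes differed between libraries of one group as well as between groups. All 10 were highest in CFZ_EA replicate 2, and 8 were lowest in CFZ replicate 2. In 7 of them (Myl7, Myl4, Sln, Dkk3, Sbk2, Mybphl and Pam) the 6 libraries stood in one and the same order, from the lowest, CFZ replicate 2, through CFZ replicate 1, CFZ_EA replicate 1, control replicate 2 and control replicate 1 to the highest, CFZ_EA replicate 2. In every member both CFZ libraries lay below both control libraries, 10 of 10, where 20.8% of all 10329 genes tested did so. For Bmp10 this rests on 42 counts in control replicate 2 against 31 counts in CFZ replicate 1. The members follow one another across libraries, so the count is a description. In 9 of 10 both CFZ_EA libraries lay above both CFZ libraries, against 15.1% of all genes tested, and Bmp10 was the exception. The CFZ_EA and control libraries overlapped in all 10, while 10.5% of all genes lay higher and 22.1% lower without overlap. The first 2 of these comparisons share the CFZ libraries, so their opposite directions are not independent.

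**Figure D1:**
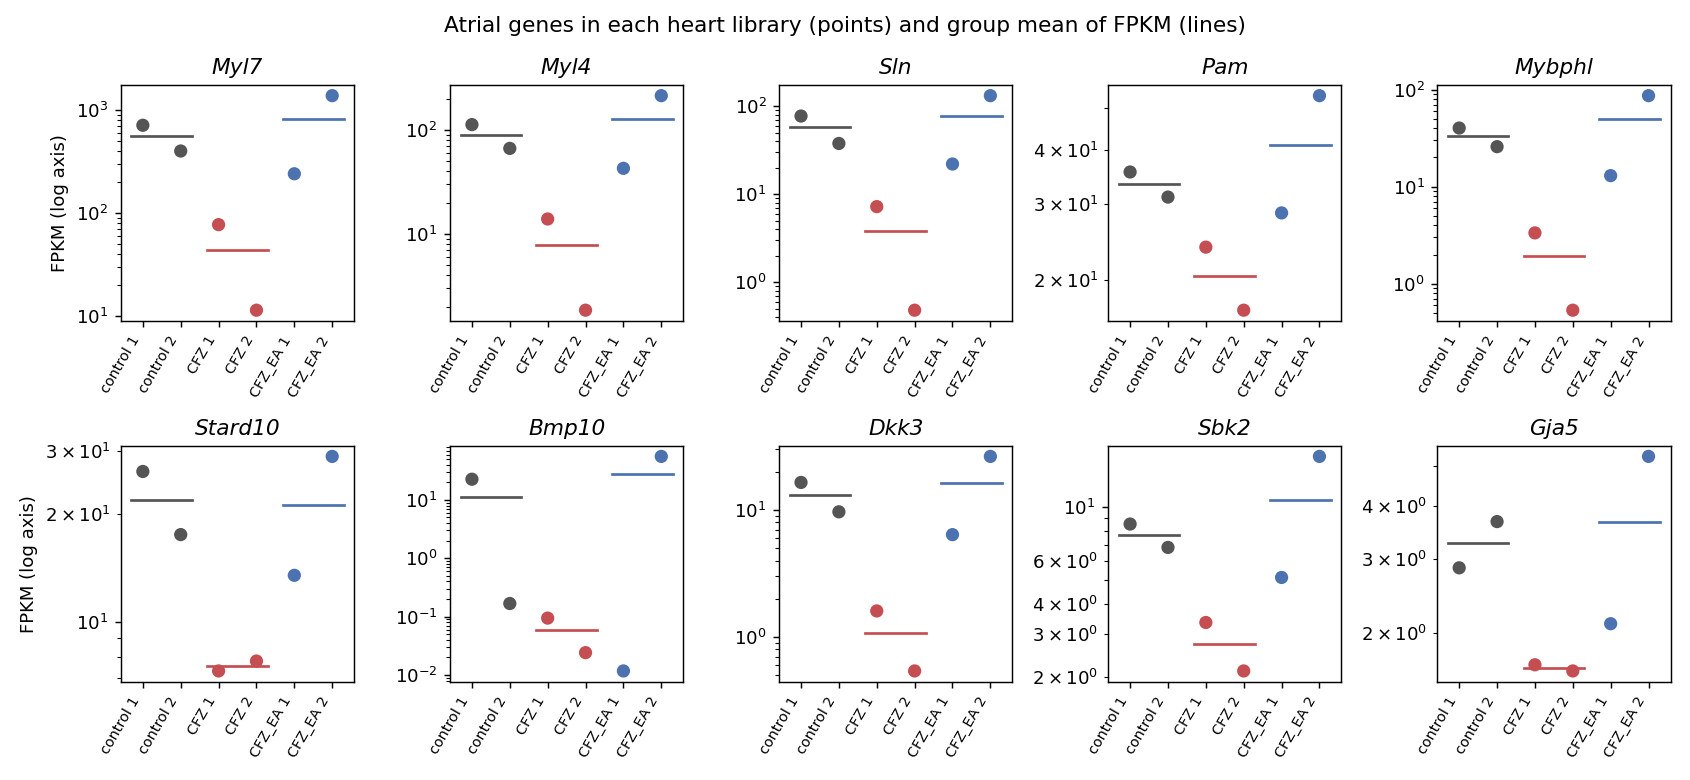
FPKM on a log axis of the 10 atrial genes in each of the 6 libraries; points are libraries, lines the mean of the 2 libraries of a group, and panels are ordered by mean level. Both CFZ points lie below both control points in each panel, while the CFZ_EA points differ from 1.87-fold in Pam to 4758-fold in Bmp10, at 0.0117 and 55.7 FPKM.

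Myl7 was the most abundant of the 10, and its 6 values are given in the order of replicate 1 and replicate 2, as are those of the other genes below. Myl7 (ENSMUSG00000020469, chromosome 11, 5896637 to 5898782, GRCm38) measured 713 and 401 FPKM in control, 77.6 and 11.5 FPKM with CFZ, and 241.5 and 1381 FPKM with CFZ_EA. The group means were 557 ± 220, 44.5 ± 46.7 and 811 ± 805 FPKM (SD, n = 2 each). The CFZ libraries were the low ones, yet they differed 6.75-fold from each other, and the CFZ_EA libraries differed 5.72-fold. Myl4 (ENSMUSG00000061086, chromosome 11, 104550663 to 104595753) measured 113 and 66.8 FPKM in control, 13.97 and 1.85 FPKM with CFZ, and 42.9 and 215 FPKM with CFZ_EA. Its ratio to Myl7 stayed between 0.155 and 0.180 in all 6 libraries, although Myl7 itself was lowest at 0.833% of its highest level. Reads of 4 gene models on the opposite strand inside Myl4 were few, at most 23 counts each in any library, against at least 599 for Myl4.

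Mybphl and Sln also kept a narrow range of ratios to Myl7, with Sln lower in 1 library. Mybphl (ENSMUSG00000068745, chromosome 3, 108364911 to 108380057) measured 40.1 and 25.8 FPKM in control, 3.34 and 0.534 FPKM with CFZ, and 12.98 and 86.5 FPKM with CFZ_EA, or 0.0430 to 0.0643 of Myl7. Sln (ENSMUSG00000042045, chromosome 9, 53850164 to 53854560) measured 77.2 and 37.7 FPKM in control, 7.23 and 0.483 FPKM with CFZ, and 22.0 and 131 FPKM with CFZ_EA. Its ratio to Myl7 was 0.0912 to 0.108 in 5 libraries and 0.0420 in CFZ replicate 2, where Sln had 45 counts. Sarcolipin and its ventricular relative phospholamban (Pln) inhibit the same pump. Sln made up 26.1% and 18.3% of the summed Sln and Pln FPKM in control, 3.09% and 0.231% in CFZ, and 9.43% and 39.9% in CFZ_EA, with Pln itself between 168 and 227 FPKM throughout. For the regulatory light chains, Myl7 made up 14.5% and 9.77% of Myl7 plus the ventricular Myl2 in control, 1.63% and 0.217% in CFZ, and 5.08% and 24.6% in CFZ_EA.

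The stretch before the start of Myl7 and Mybphl, which stood in the same order over the libraries, is shown beside that of Bmp10, which did not follow them (below). Each is the 250 bases before the RefSeq start on GRCm38.p6, written 5′ to 3′ in the sense of the gene. Myl7 lies at chr11:5898783-5899032 on the minus strand, Mybphl at chr3:108364661-108364910 and Bmp10 at chr6:87428744-87428993, both on the plus strand. Capitals mark matches on either strand to AGATAA or TGATAA (binding motif of GATA factors), GGTGTG (T-box factors), AGGTCA (core site of nuclear receptors such as COUP-TF), TATAAA (the TATA box), and to the MEF2 and CArG motifs, the last bound by serum response factor.
Myl7: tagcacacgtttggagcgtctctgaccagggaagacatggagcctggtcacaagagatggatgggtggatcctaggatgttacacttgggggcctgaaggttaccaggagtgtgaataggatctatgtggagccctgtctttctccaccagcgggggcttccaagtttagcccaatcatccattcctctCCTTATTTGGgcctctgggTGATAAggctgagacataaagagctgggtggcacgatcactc
Mybphl: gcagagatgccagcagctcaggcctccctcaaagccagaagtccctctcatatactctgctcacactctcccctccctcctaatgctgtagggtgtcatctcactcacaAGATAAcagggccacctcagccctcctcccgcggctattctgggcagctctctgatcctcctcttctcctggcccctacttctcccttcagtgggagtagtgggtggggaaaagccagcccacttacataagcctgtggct
Bmp10: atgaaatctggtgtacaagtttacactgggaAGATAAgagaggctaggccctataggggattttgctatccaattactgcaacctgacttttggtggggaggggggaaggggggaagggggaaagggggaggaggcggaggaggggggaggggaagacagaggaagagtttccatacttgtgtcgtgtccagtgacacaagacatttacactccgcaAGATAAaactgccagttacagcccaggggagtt

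The Myl7 window held a CArG match that began 61 bases before the start and TGATAA at 42 bases. Mybphl held AGATAA at 141 bases, and Bmp10 held AGATAA at 219 and at 33 bases. Of 27025 genes with a promoter of this length, AGATAA was present in 10.3%, TGATAA in 8.16% and CArG in 1.4%. Among the 8 of the 10 atrial genes with a RefSeq promoter entry (not Sln and Dkk3), AGATAA was in 2, TGATAA in 2 (Myl7 and Stard10), CArG in 1 and GGTGTG in 2 (Sbk2 and Stard10), the last present in 16.2% of all promoters. MEF2, AGGTCA and TATAAA matched 0 of the 8, and 3.01%, 13.8% and 13% of all promoters. The windows of the 3 genes shown therefore had no motif in common among those searched, other than a GATA motif in either form. Of the other members with an entry, Stard10 held a GATA motif and Sbk2 did not. Myl4, Gja5 and Pam held none of the motifs searched, although Myl4, Sbk2 and Pam also stood in that order over the libraries. The share of all promoters with either GATA form was not counted.

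Bmp10 did not keep pace with the other atrial genes. Bmp10 (ENSMUSG00000030046, chromosome 6, 87428994 to 87437677) measured 22.6 and 0.167 FPKM in control, 0.0942 and 0.0241 FPKM with CFZ, and 0.0117 and 55.7 FPKM with CFZ_EA. In counts these were 6363 and 42, 31 and 8, and 4 and 20749. It was thus high in control replicate 1 and CFZ_EA replicate 2 and near the floor of 3 counts in CFZ_EA replicate 1, where Myl7 measured 241.5 FPKM. Its ratio to Myl7 was 0.0317 in control replicate 1 and 0.0403 in CFZ_EA replicate 2, and 4.85e-05 to 0.00210 in the other 4 libraries. Control replicate 2 carried Myl7 at 401 FPKM with Bmp10 at a ratio of 0.000417. Bmp10 was thus split within the control group and within the CFZ_EA group, and was low in both CFZ libraries. Hamp, the gene of hepcidin, measured 27.0 and 0.250 FPKM in control, 2.19 and 0.858 FPKM with CFZ, and 7.10 and 30.5 FPKM with CFZ_EA, so it was also highest in those 2 libraries. The share of right and left atrium in each piece was not tested.

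Dkk3 had the same order of libraries as the light chains. Dkk3 (ENSMUSG00000030772, chromosome 7, 112116017 to 112159057), a secreted member of the Dickkopf family, measured 16.5 and 9.67 FPKM in control, 1.60 and 0.541 FPKM with CFZ, and 6.40 and 26.4 FPKM with CFZ_EA. Its ratio to Myl7 was 0.0191 to 0.0265 in 5 libraries and 0.0471 in CFZ replicate 2, where Myl7 was at its lowest.

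Stard10, Sbk2, Gja5 and Pam spanned a much narrower range. Pam (ENSMUSG00000026335, chromosome 1, 97795114 to 98095621) measured 35.6 and 31.1 FPKM in control, 23.8 and 17.0 FPKM with CFZ, and 28.6 and 53.4 FPKM with CFZ_EA, so its lowest library held 31.9% of its highest. The corresponding shares were 30.9% for Gja5, 25.3% for Stard10 and 13.1% for Sbk2, against 2.05% for Dkk3, 0.864% for Myl4, 0.618% for Mybphl and 0.368% for Sln. In CFZ replicate 2, with the least Myl7, Pam stood at 1.48 and Stard10 at 0.678 times the FPKM of Myl7, where in CFZ_EA replicate 2 they stood at 0.0387 and 0.0209 times.

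Stard10 (ENSMUSG00000030688, chromosome 7, 101317086 to 101346626) measured 26.2 and 17.5 FPKM in control, 7.31 and 7.79 FPKM with CFZ, and 13.5 and 28.9 FPKM with CFZ_EA. The CFZ libraries agreed within 1.07-fold here, although Myl7 differed 6.75-fold between them. Gja5 (ENSMUSG00000057123, chromosome 3, 96904693 to 97077416) measured 2.86 and 3.68 FPKM in control, 1.68 and 1.63 FPKM with CFZ, and 2.10 and 5.26 FPKM with CFZ_EA, and the CFZ libraries were again alike. Its model overlaps Gpr89 on the opposite strand, and whether counting used strand is not given in the sources used here, so reads in the overlap may be shared. Sbk2 (ENSMUSG00000030433, chromosome 7, 4940512 to 4964406) measured 8.52 and 6.82 FPKM in control, 3.35 and 2.12 FPKM with CFZ, and 5.13 and 16.2 FPKM with CFZ_EA. Sbk2 overlaps Ssc5d on the opposite strand, which had 516 to 1934 counts against 467 to 4226 for Sbk2, so its low values in CFZ are uncertain in the same way.

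**Figure D2:**
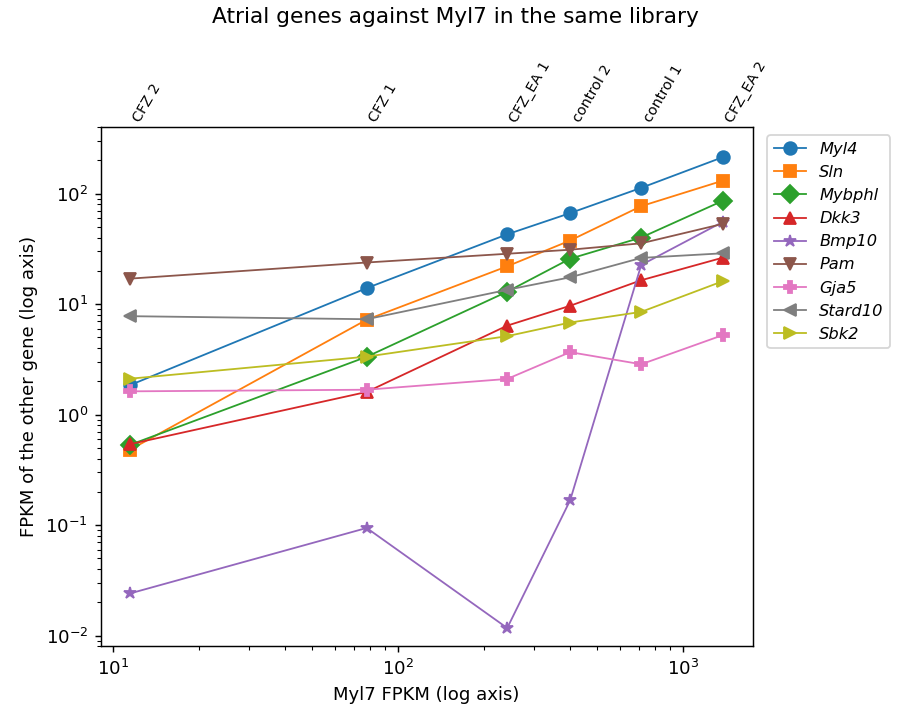
FPKM of 9 atrial genes against Myl7 FPKM in the same library, both on log axes; each line joins the 6 libraries in the order of their Myl7 level, named above the plot. Myl4, Mybphl, Sln and Dkk3 run nearly parallel to Myl7, Pam, Gja5, Stard10 and Sbk2 flatten towards CFZ replicate 2, and Bmp10 is high only in control replicate 1 and CFZ_EA replicate 2.

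Another view is the level of each gene against the mean of the other 9 in the same library, on the scale of log2(CPM + 1). The genes' own levels had a median range over the 6 libraries of 5.57 log2 units, and the levels relative to the other 9 had a median range of 2.43 log2 units. Dkk3 had the narrowest relative range, 0.94 log2 units, and Bmp10 the widest, 6.14 log2 units. Relative to the others Gja5, Pam, Stard10 and Sbk2 were highest in CFZ replicate 2, at 0.70, 5.49, 1.75 and 0.23 log2 units, and lowest in control replicate 1 or CFZ_EA replicate 2.

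To ask how carfilzomib alters these genes, CFZ was compared with control over all 10329 genes with edgeR's quasi-likelihood test. All 10 had a negative log2 fold change, with a median of -3.54, where the median of all genes tested was -0.0034 and 50.5% were negative. None of the 10 passed with Benjamini-Hochberg adjustment over all genes, 0 of 10, against 0.029% of all genes. At an unadjusted p under 0.05, 7 of 10 were lower, against 5.9% of all genes. DESeq2 called 2 of 10 lower (Dkk3 and Stard10, adjusted p = 0.0275 and 0.0299), against 1.07% of all genes, and limma on log2(FPKM + 1) called 0 of 10, against 0.0194%. Because the genes were chosen with earlier results of these data known and follow one another across libraries, these counts are a description.

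Among single genes in that comparison, Mybphl had a log2 fold change of -4.07 ± 1.15 (SE), Sln -3.90 ± 1.35, Myl7 -3.64 ± 1.15, Dkk3 -3.59 ± 0.84 and Myl4 -3.50 ± 1.13 (edgeR adjusted p = 0.608 for each). Stard10, Sbk2, Gja5 and Pam had -1.49 ± 0.41, -1.45 ± 0.54, -0.92 ± 0.41 and -0.66 ± 0.32 (edgeR adjusted p = 0.608 to 0.670). The fitted value of Bmp10 was -7.54 ± 3.59, and without control replicate 1 it was -1.35. In all 10 genes the sign was negative whichever single library was left out. This follows from both CFZ libraries lying below both control libraries, and adds nothing to that order. Without CFZ replicate 1, which leaves the lowest library as the only one of its group, Myl7 had -5.51, Myl4 -5.51 and Sln -6.78, and the median of the 10 was -5.00. Without control replicate 1 the median was -2.17.

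**Figure D3:**
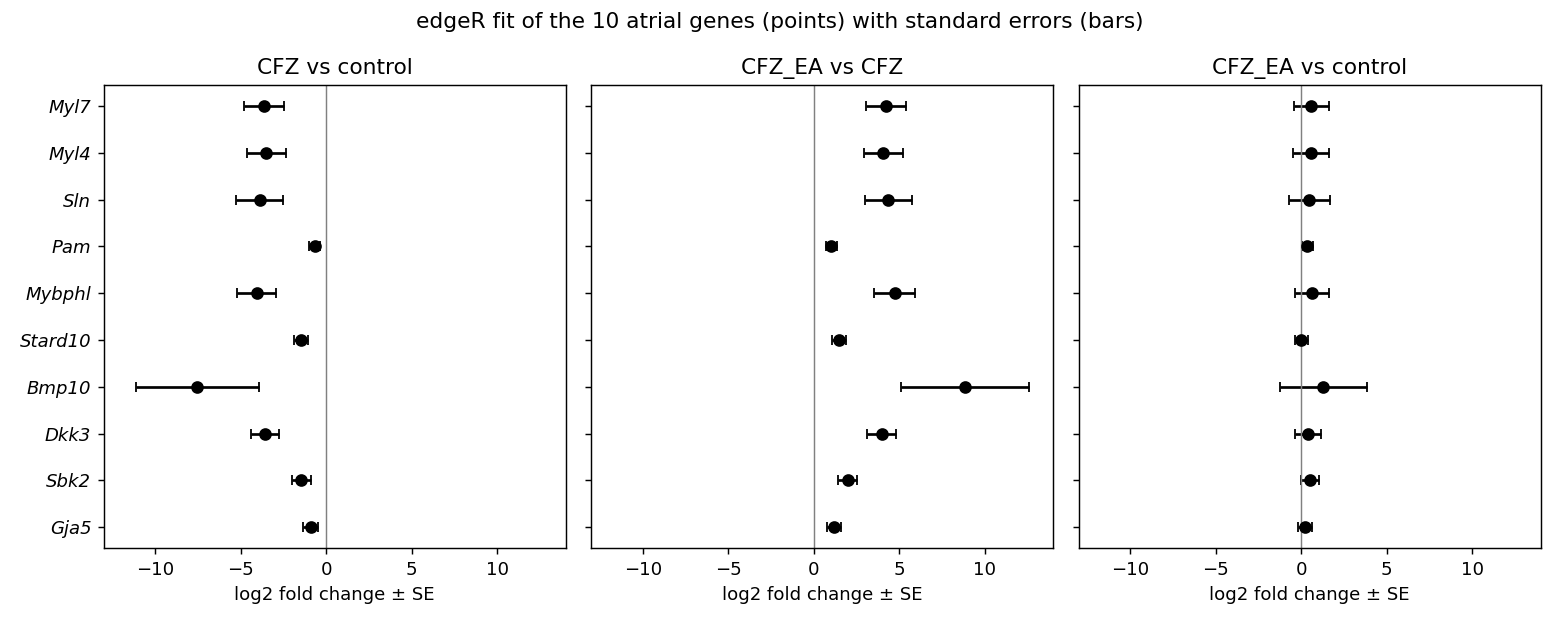
Log2 fold change of the 10 atrial genes in the 3 comparisons from the edgeR fit of all 6 libraries. Points are estimates and bars standard errors derived from the test's F statistic, with genes in the order of their mean level. In CFZ against control all points lie below 0, in CFZ_EA against CFZ all lie above 0, and in CFZ_EA against control all 10 lie between 0.011 and 1.31.

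To ask how electroacupuncture alters these genes under carfilzomib, CFZ_EA was compared with CFZ. All 10 had a positive log2 fold change with a median of 4.03, where the median of all genes tested was -0.0084 and 48.1% were positive. By edgeR's adjusted p 0 of 10 passed, against 0.0194% of all genes, and at an unadjusted p under 0.05 it was 9 of 10 higher, against 2.01%. DESeq2 called 3 of 10 higher (Dkk3, Sbk2 and Stard10, adjusted p = 0.0131, 0.0276 and 0.0457), against 0.375% of all genes. With limma on log2(FPKM + 1) it was 0 of 10, against 0.0194%. Here too the counts are a description, for the reasons given for CFZ against control.

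Mybphl had a log2 fold change of 4.73 ± 1.18 (SE), Sln 4.37 ± 1.38, Myl7 4.24 ± 1.18, Myl4 4.08 ± 1.16 and Dkk3 3.97 ± 0.85 for CFZ_EA against CFZ (edgeR adjusted p = 0.9997 for each). Sbk2, Stard10, Gja5 and Pam had 1.99 ± 0.55, 1.501 ± 0.41, 1.17 ± 0.42 and 1.03 ± 0.32. These sizes rest in large part on CFZ_EA replicate 2. Without it the median of the 10 was 1.69, with Mybphl at 2.77, Sln at 2.54, Myl7 at 2.47, Myl4 at 2.47, Dkk3 at 2.59, Sbk2 at 0.91, Stard10 at 0.83, Pam at 0.49 and Gja5 at 0.34. Bmp10, at 8.85 ± 3.74 with all libraries, then had -2.26, the opposite sign. Without CFZ replicate 1 the median was 5.48.

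Between CFZ_EA and control the differences lay within the spread between replicates. The 10 log2 fold changes were all positive, with a median of 0.50 against -0.0013 for all genes tested (49.7% of all genes were positive), but in 8 of 10 the change was smaller than its standard error. None passed by edgeR (adjusted p = 0.879 to 0.998). The background was 0% of genes called. At an unadjusted p under 0.05 it was 0 of 10, against 1.47% of all genes higher and 3.66% lower. DESeq2 also called 0 of 10, against 0.257% higher and 0.247% lower, and limma called 0 of 10, against 0%. Without CFZ_EA replicate 2 all 10 were negative (median -1.02). Without control replicate 2, Stard10 had -0.31, Sln -0.00035 and Dkk3 -0.00014.

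The levels of chamber markers were read beside these values. In the list of 8 ventricular genes, summed FPKM was 9822 and 8708 in control, 10758 and 11520 in CFZ, and 10463 and 9497 in CFZ_EA. It was highest in the library with the least Myl7, CFZ replicate 2. Most of that sum was Myl2 and Myl3, which were highest there at 5290 and 5146 FPKM. Irx4 was highest there as well, while Fhl2 and Hey2 were lowest there, and Pln, Kcnj2 and Kcnip2 lay between. Of the 7 ventricular genes tested 7 had a positive log2 fold change in CFZ against control (median 0.22). By edgeR 0 passed and 1 had an unadjusted p under 0.05. Of all 10329 genes tested 5109 were positive, 188 of them at an unadjusted p under 0.05. Myl2 had 0.39 ± 0.21, Myl3, the ventricular essential light chain, 0.30 ± 0.21 and Irx4, a ventricular transcription factor, measured 16.4 to 20.2 FPKM in all libraries. The 10 sarcomere and calcium genes common to both chambers were also higher in CFZ in 10 of 10 cases (median 0.29), with 0 passing and 1 at an unadjusted p under 0.05. In bulk tissue, fewer atrial cells and less of these RNAs per atrial cell cannot be told apart, and the share of atrial tissue in each piece is not recorded in the labels, so its part in these differences was not tested.

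A second list of 11 genes was taken as other atrial genes, though how strictly each is confined to atria was not tested. Its summed FPKM spanned a narrower range, with Kcnk3 as the largest part. It was 114 and 109.6 in control, 121 and 100.2 in CFZ, and 122 and 118 in CFZ_EA. Of 7 tested, 4 had a positive and 3 a negative log2 fold change for CFZ against control (median 0.019), and 0 passed by edgeR, adjusted or unadjusted. For CFZ_EA against CFZ all 7 were positive (median 0.17), where 48.1% of all genes were. All 7 were also positive for CFZ_EA against control (median 0.19), where 49.7% of all genes were. In both comparisons 0 passed, adjusted or unadjusted. Kcnk3, a background potassium channel and the most abundant of them, measured 61.1 to 69.1 FPKM, Corin, the protease that activates pro-ANP, 10.8 to 14.1 FPKM, and Chrm2, the muscarinic receptor, 4.90 to 7.00 FPKM. Kcnj3, a subunit of the acetylcholine-gated potassium channel, was highest in CFZ_EA replicate 2 at 2.30 FPKM, against 0.739 to 1.08 FPKM elsewhere, while its partner Kcnj5 was not, at 12.8 FPKM there and 8.97 to 19.5 FPKM elsewhere. Tbx5, a transcription factor of atria and conduction system, was also highest there, at 8.12 FPKM against 4.03 to 6.96 FPKM. Among those too low to be tested, Nr2f2 (COUP-TFII), an atrial transcription factor, measured 0.895 and 0.623 FPKM in control, 0.562 and 0.572 FPKM with CFZ, and 0.631 and 1.05 FPKM with CFZ_EA. The calcium channel gene Cacna1d measured 0.250 and 0.168 FPKM in control, 0.117 and 0.0552 FPKM with CFZ, and 0.108 and 0.259 FPKM with CFZ_EA. In both the CFZ libraries lay below the control libraries and CFZ_EA replicate 2 was highest, as in the 10 genes.

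**Figure D4:**
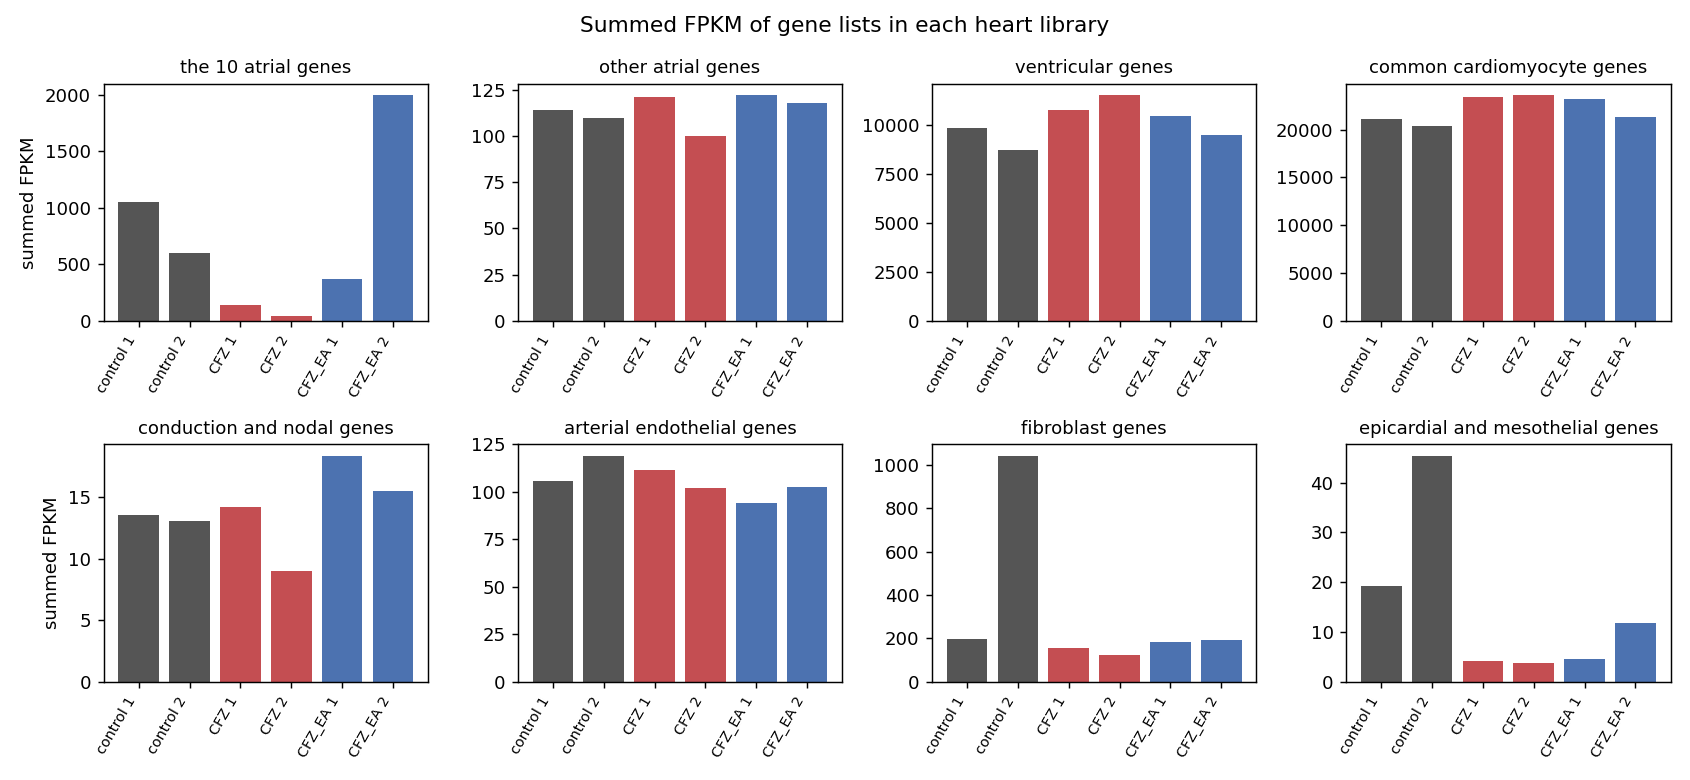
Summed FPKM of 8 gene lists in each library, on linear axes from 0; each bar is 1 library and each panel has its own scale. The 10 atrial genes range from 43.5 to 1999 FPKM, while the other atrial genes range from 100.2 to 122 FPKM and the ventricular genes from 8708 to 11520 FPKM. Kcnk3, at 61.1 to 69.1 FPKM, is the largest part of the other atrial genes, and Myl2 and Myl3 are the largest parts of the ventricular genes.

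Nppa, the atrial natriuretic peptide gene, is no member of the set but is the classical product of the same cells. It measured 1887 and 1083 FPKM in control, 233 and 187 FPKM with CFZ, and 646 and 3882 FPKM with CFZ_EA. Nppa stood at 2.65 to 3.01 times the FPKM of Myl7 in 5 libraries and at 16.2 times in CFZ replicate 2, where Myl7 was at its lowest. Nppb, the B-type peptide gene, took another course, with 266 and 114 FPKM in control, 73.1 and 242 FPKM with CFZ, and 245 and 189 FPKM with CFZ_EA.

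Relatives and partners of the 10 genes were read next. In the family of light chains and myosin-binding proteins, the 8 tested divided evenly in CFZ against control, 4 with a positive and 4 with a negative log2 fold change (median -0.14). By edgeR 0 passed, and 2 were lower at an unadjusted p under 0.05, against 5.9% of all genes. Myl1, an essential light chain known from fast skeletal muscle, measured 24.2 and 15.2 FPKM in control, 6.23 and 5.05 FPKM with CFZ, and 9.08 and 20.6 FPKM with CFZ_EA (log2 fold change -1.77 ± 0.45, edgeR adjusted p = 0.608). The fast troponin subunit Tnni2 measured 1.86 and 1.72 FPKM in control, 0.715 and 0.502 FPKM with CFZ, and 0.805 and 1.18 FPKM with CFZ_EA (log2 fold change for CFZ against control -1.499 ± 0.35, edgeR adjusted p = 0.608). Myl1 and Tnni2 were the 2 skeletal muscle genes tested, both lower with an unadjusted p under 0.05, against 5.9% of all genes. Mylpf, the fast regulatory light chain, was at most 1.32 FPKM. The calcium pump Atp2a2 measured 1249 to 1696 FPKM. All 4 genes tested of the pump list were higher in CFZ (median 0.24), where 5109 of all 10329 genes were. By edgeR 0 of the 4 passed, adjusted or unadjusted.

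Sbk3 and Sbk1 are the relatives of Sbk2. Sbk3, the next gene to Sbk2 in the annotation and on the same strand, measured 15.3 and 9.59 FPKM in control, 2.93 and 0.946 FPKM with CFZ, and 8.10 and 32.7 FPKM with CFZ_EA, while Sbk1 measured 19.0 to 22.7 FPKM in all libraries. Of the connexins, Gja1 (connexin 43), the main one of working ventricular muscle, measured 21.1 and 18.2 FPKM in control, 25.03 and 16.5 FPKM with CFZ, and 13.1 and 11.8 FPKM with CFZ_EA (CFZ_EA against CFZ -0.72 ± 0.20, edgeR adjusted p = 0.9997). Gja5 made up 11.9% and 16.8% of the summed Gja5 and Gja1 in control, 6.29% and 8.98% in CFZ, and 13.9% and 30.8% in CFZ_EA.

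For Bmp10, whose protein signals through the endothelial receptor ALK1 (Acvrl1) and its co-receptor endoglin (Eng), 12 of 15 receptor and target genes were tested. In CFZ against control 5 were higher and 7 lower (median -0.021), and in CFZ_EA against CFZ 7 were higher and 5 lower (median 0.15). By edgeR 0 passed in either comparison, and at an unadjusted p under 0.05 it was 2 and 3 of the 12. The 2 were lower, against 5.9% of all genes. Of the 3, 2 were higher, against 2.01% of all genes, and 1 was lower, against 111 of 10329. Eng measured 38.9 to 58.0 FPKM and the target Id3 35.9 to 47.8 FPKM. The target Id1 measured 39.2 to 43.96 FPKM in 5 libraries and 64.96 FPKM in CFZ replicate 2, where Bmp10 had 8 counts. The 2 with an unadjusted p under 0.05 in CFZ against control, named after their values were seen, were the inhibitory Smad6 (-0.55 ± 0.16) and the target Id2 (-0.85 ± 0.28), both with an edgeR adjusted p of 0.608. For CFZ_EA against CFZ they had 0.47 ± 0.16 and 0.52 ± 0.28 (edgeR adjusted p = 0.9997).

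Of the Dickkopf list, the co-receptors Kremen1, Lrp5 and Lrp6 were tested, with 1 higher and 2 lower in CFZ (median -0.093). Among relatives of Stard10, 2 of 5 were higher and 3 lower (median -0.040), and Stard7 measured 22.5 to 34.0 FPKM. In the list of peptide hormone processing, to which Pam belongs, 2 of 4 were higher and 2 lower (median -0.0061), and Cpe, carboxypeptidase E, measured 60.0 to 78.3 FPKM in all libraries. By edgeR 0 of these passed, and 1 relative of Stard10 was higher at an unadjusted p under 0.05.

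Markers of other tissues were read in the same way. The conduction and nodal list summed to 8.97 to 18.4 FPKM and was lowest in CFZ replicate 2, and 6 of its 12 genes stayed under 1 FPKM in every library. Of the 5 tested, 3 were higher and 2 lower in CFZ against control (median 0.026), with 0 at an unadjusted p under 0.05. For CFZ_EA against CFZ 4 were higher and 1 lower (median 0.27), with 1 at an unadjusted p under 0.05 and 0 passing by edgeR. That gene, Cntn2, a Purkinje cell marker named after its values were seen, had 2.65 ± 0.68 and was highest in CFZ_EA replicate 1 (3.39 FPKM, against 0.191 to 0.962 FPKM elsewhere). Cpne5, also named after its values were seen and too low to be tested, measured 0.392 and 0.0952 FPKM in control, 0.0813 and 0.0381 FPKM with CFZ, and 0.236 and 0.699 FPKM with CFZ_EA. The nodal channel Hcn4 measured 2.31 to 4.43 FPKM. The arterial endothelial list, relevant to Gja5, summed to 94.2 to 119 FPKM, with 3 higher and 5 lower of 8 tested in CFZ against control (median -0.069), 0 passing and 1 at an unadjusted p under 0.05. Epicardial and mesothelial genes moved with the atrial genes in part, with summed values of 19.3 and 45.4 FPKM in control, 4.14 and 3.76 FPKM with CFZ, and 4.53 and 11.8 FPKM with CFZ_EA. Their highest library was control replicate 2, not CFZ_EA replicate 2. Fibroblast genes summed to 199 and 1044 FPKM in control, 158 and 124 FPKM with CFZ, and 181 and 194 FPKM with CFZ_EA. All 8 fibroblast genes and the 4 epicardial genes tested had a negative log2 fold change for CFZ against control (medians -2.12 and -3.22). Each had an unadjusted p under 0.05 by edgeR, and 0 passed. Over all genes tested 50.5% were negative, and 5.9% were lower at an unadjusted p under 0.05. Without control replicate 2, the library high in both lists, the median of the 10 atrial genes was -3.93. Of the 6 lung genes 5 have no row in the table used here, and the other, Ager, was at most 0.163 FPKM. The 4 fat genes with a row, of 5, summed to at most 2.00 FPKM and the 6 thymus genes to at most 1.35 FPKM. The ganglion and Schwann cell list summed to 2.69 to 5.06 FPKM.

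Candidates were 129 tested genes outside the set with a standard deviation of log2(CPM + 1) of at least 1, leaving out Gm and Rik symbols. Those nearest in pattern were picked by Pearson's r over the 6 libraries with the mean centred log2(CPM + 1) of the 10. In order they were Tmem163 (r = 0.995), Sbk3 (0.989), Nppa (0.984), Cilp2 (0.972), Sfrp5 (0.962), Fmod (0.846), Comp (0.845), Sept2 (0.844), Mir8114 (0.817) and Hamp (0.786). All share the same 6 libraries, so these values describe likeness only. Tmem163, a zinc transporter, measured 1.92 and 1.23 FPKM in control, 0.223 and 0.0378 FPKM with CFZ, and 0.729 and 3.91 FPKM with CFZ_EA. Sfrp5, a secreted Wnt antagonist, measured 4.15 and 1.84 FPKM in control, 1.29 and 0.513 FPKM with CFZ, and 2.68 and 8.15 FPKM with CFZ_EA. Sept2 and Mir8114 passed by edgeR both in CFZ against control (adjusted p = 0.0077 and 0.0080) and in CFZ_EA against CFZ (adjusted p = 0.0074 and 0.0088). The Sept2 model, listed at 0 in both CFZ libraries, overlaps a second Sept2 model on the same strand, which had 3643 and 3163 counts with CFZ and 119 to 668 counts elsewhere. Mir8114 overlaps the start of Glul on the same strand, which had 10824 to 19163 counts. How reads were divided between these overlapping models is not given, so both values are uncertain.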

How the data were processed

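Poly(A) RNA of 6 mouse heart libraries was read in pairs of 150 bases after dUTP strand marking, per the labels' protocols. StringTie 1.3.4d, HISAT2 2.0.4, cutadapt 1.9 and the build GRCm38 are named by the submitters' processing notes. What each tool did, which annotation was used and how strand was set is not given in the sources used here. The authors deposited, per the file headers, 1 FPKM column and 1 count column for each library. The deposited counts were treated as estimated counts and rounded, since 42.2% to 43.3% of those from 1 to 20 were multiples of 4. Intervals are not given, and floors cover counting error only, since PCR copies are not independent molecules.

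Genes with a mean of at least 1 FPKM (10329 of 26835) entered edgeR 4.0.16's quasi-likelihood test with TMM factors and 1 model of 3 groups (residual degrees of freedom 3). Genes with a Benjamini-Hochberg adjusted p under 0.05 were called. This test reports no standard error. The SE given is the unshrunken log2 fold change, without sign, over the square root of the test's F statistic. An exact test of 2 against 2 cannot go below p = 0.333. DESeq2 1.42.0, limma 3.58.1, R 4.3.3 and Python 3.11.15 were used. In simulated counts, edgeR recovered 28% to 44% of 2-fold, 90% to 94% of 4-fold and 96% to 100% of 8-fold changes. It also made 16 to 18 false calls per comparison. The changed genes were picked at random among those with a mean expected count above 100. These shares need not hold for the 10 atrial genes. Named genes were the 10 genes, those of the 2 chamber lists, the 3 most abundant and any called gene of each other list, and the 10 most similar genes; the text names part of them. Members and lists were chosen with earlier results of these data known. Fixed alternatives changed the filter, scaling, test, pseudocount, groups, replicate block and libraries. Counts divided by 4, and leaving out control replicate 2 with CFZ_EA replicate 2, were added after seeing the data.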

Additional observations from a re-analysis of the deposited data

How the results depend on the processing

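With 1 library left out, the median log2 fold change of the 10 atrial genes ran from -5.00 to -2.17 in CFZ against control, from 1.69 to 5.48 in CFZ_EA against CFZ and from -1.02 to 1.21 in CFZ_EA against control. Genes called over all genes then numbered 0 to 332 (3 with all libraries), 0 to 4 (2) and 0 to 231 (0), and atrial genes called 0 in each case; the 332 and 231 came without control replicate 1, where control is replicate 2 alone and is assumed to vary like the other groups. With DESeq2, 138, 55 and 51 genes were called, and 2, 3 and 0 of the 10. Fitting only the groups compared called 0 genes in CFZ against control. Without control replicate 2 and CFZ_EA replicate 2, 32 genes and 2 of the 10 (Bmp10 and Stard10) were called in CFZ against control, 3 genes in CFZ_EA against CFZ, where the median was 1.69, and 1 gene in CFZ_EA against control. In that fit the spread comes from the CFZ pair alone, so it takes no account of the 135-fold difference in Bmp10 between the control libraries. Counts divided by 4 called 1 gene in each of the first 2 comparisons. With limma on log2(FPKM + 1) the median was 2.83 in CFZ_EA against CFZ. The cause was not tested, except that the pseudocount understates the change of low genes.

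In CFZ_EA against control the sign was not stable. The values with 1 library left out ran from -1.18 to 1.38 for Myl7, -1.04 to 1.33 for Myl4, -1.36 to 1.26 for Sln, -9.81 to 7.51 for Bmp10, -1.003 to 1.08 for Dkk3, -0.66 to 0.48 for Stard10, -0.54 to 1.15 for Sbk2, -0.58 to 0.78 for Gja5, -1.31 to 1.46 for Mybphl and -0.18 to 0.76 for Pam. Without control replicate 2 and CFZ_EA replicate 2 they were, in that order, -1.58, -1.41, -1.83, -10.80, -1.38, -0.98, -0.75, -0.46, -1.64 and -0.33, with a median of -1.40. Stard10 also turned with limma at a pseudocount of 1 (-0.11) and 0.1 (-0.12), and Sln at 0.1 (-0.0023). In CFZ_EA against CFZ, Bmp10 ran from -2.26 to 10.04 with 1 library left out and had -2.26 without the 2 libraries.

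With the replicate number as a block the medians were -3.62, 4.25 and 0.60, the genes called 2, 2 and 0, and the atrial genes called 0 in each; Stard10 had -0.051 in CFZ_EA against control. Deviations of same-numbered libraries correlated at -0.070, -0.062 and 0.075 between groups, so no pairing by number was visible. With 2 libraries per group, these values cannot exclude a pairing. The median range of levels relative to the other 9 genes was 2.63 log2 units on log2(FPKM + 1) and 2.57 relative to Nppa. Depth was low for Bmp10 in the 4 libraries with 4 to 42 counts, and for Sln and Mybphl in CFZ replicate 2 (45 and 48 counts).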
